A study of Drosophila melanogaster with 13 samples.

Results

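Of the 5990 CRTC-binding sites listed for mushroom body (MB) nuclei of Drosophila melanogaster, 995 (16.6%, 95% Wilson interval 15.7 to 17.6%) had no CREB-binding site within 200 bp, measured from edge to edge on the same chromosome of dm3. These 995 sites, termed CRTC-alone sites here, were selected on their distance to the 7243 CREB-binding sites. The other 4995 CRTC sites had a CREB site within 200 bp and are the CREB/CRTC regions to which the deposited binding table gives a gene and a distance to a transcription start site (TSS). The study asked where CREB and its coactivator CRTC bind in MB neurons before and after spaced training, the repeated odour and shock pairing with rests that gives long-term memory. All flies were of strain CS10 per the labels, written w(CS10) in the study, and nuclei were pulled from head extracts by a FLAG-KASH tag in the nuclear membrane, expressed from the MBp-LexA driver, so that the sites describe the MB neurons this driver labels. The CREB and CRTC antibodies were both raised by Japan Lamb. For each antibody there were 3 libraries from naive flies and 3 from flies taken 1 day after spaced training. Input DNA of naive flies made up the remaining library. Pools of flies were used for each preparation.

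CREB is a basic leucine zipper (bZIP) transcription factor that binds DNA at cAMP-response elements. CRTC has no such DNA-binding domain of its own and is known to reach DNA through the bZIP domain of CREB or related factors. It is held in the cytoplasm while phosphorylated and enters the nucleus when calcium and cAMP signals lead to its dephosphorylation, and both proteins act in the MB in long-term memory.

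Each site in the lists comes with its start, its end and 2 values of the peak calling against input DNA, a score and a false discovery rate. The score is used here only to order sites within the CRTC list. The lists hold 1 entry for a site of a protein, with no value per library. They do not state whether naive libraries, trained libraries or both gave a site. The study presents the sites as binding examined on the day after spaced training, but does not name the libraries used for peak calling. From the lists alone, no spread between replicates, no read depth behind a site and no difference between naive and trained flies could be given. None of the differences below was tested. A site without a listed CREB neighbour is one where no CREB site passed the peak calling. CREB binding under that threshold and no CREB binding cannot be told apart in these lists. Wilson intervals cover counting error only, and neighbouring sites are not independent.

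The rule set the limit at 200 bp, and the distances around it are given as a description. CREB and CRTC sites shared or touched bases at 4531 CRTC sites, 387 more CRTC sites were 1 to 100 bp from a CREB site, and only 77 were 101 to 200 bp away. Beyond the limit there were 114 sites at 201 to 300 bp and 123 sites at 301 to 400 bp. The 3 members nearest to the limit were a 52-bp site on 3L at 14544281 to 14544333 (201 bp from a CREB site, score 6.52, nearest to the CREB/CRTC region of CG34039), a 156-bp site on X at 10219915 to 10220071 (202 bp, score 3.38, alpha-Man-I) and a 52-bp site on 3L at 3081813 to 3081865 (203 bp, score 2.64, CG11486). Just inside the limit, and so no members, were sites at hang on X (199 bp, score 1.94), Ssdp on 3R (200 bp, score 6.92) and RYBP on 2R (200 bp, score 6.30). The 3 named sites on each side covered a similar range of scores, 1.94 to 6.92 inside the limit and 2.64 to 6.52 beyond it. Over wider classes the median score was lower beyond the limit. It was 3.51 over the 77 CRTC sites at 101 to 200 bp and 2.73 over the 114 at 201 to 300 bp.

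The distance from a CRTC-alone site to the nearest CREB site had a median of 836 bp, and the middle 50% of the sites were between 412.5 and 4593 bp. There were 330 sites (33.2%) within 500 bp, 530 (53.3%) within 1000 bp and 758 (76.2%) within 5000 bp, while 127 were more than 10000 bp and 12 more than 50000 bp away. Distances to CREB thus covered a wide range. For comparison, of the 2182 CREB sites with no CRTC site within 200 bp, 23.4% had a CRTC site within 1000 bp, and their median distance was 4834 bp. The CREB list is the longer one, so that these distances are set side by side only. The nearest CREB site was itself one with a CRTC site within 200 bp for 746 of the 995 CRTC-alone sites (74.97%), against 69.9% of all CREB sites.

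**Figure D1:**
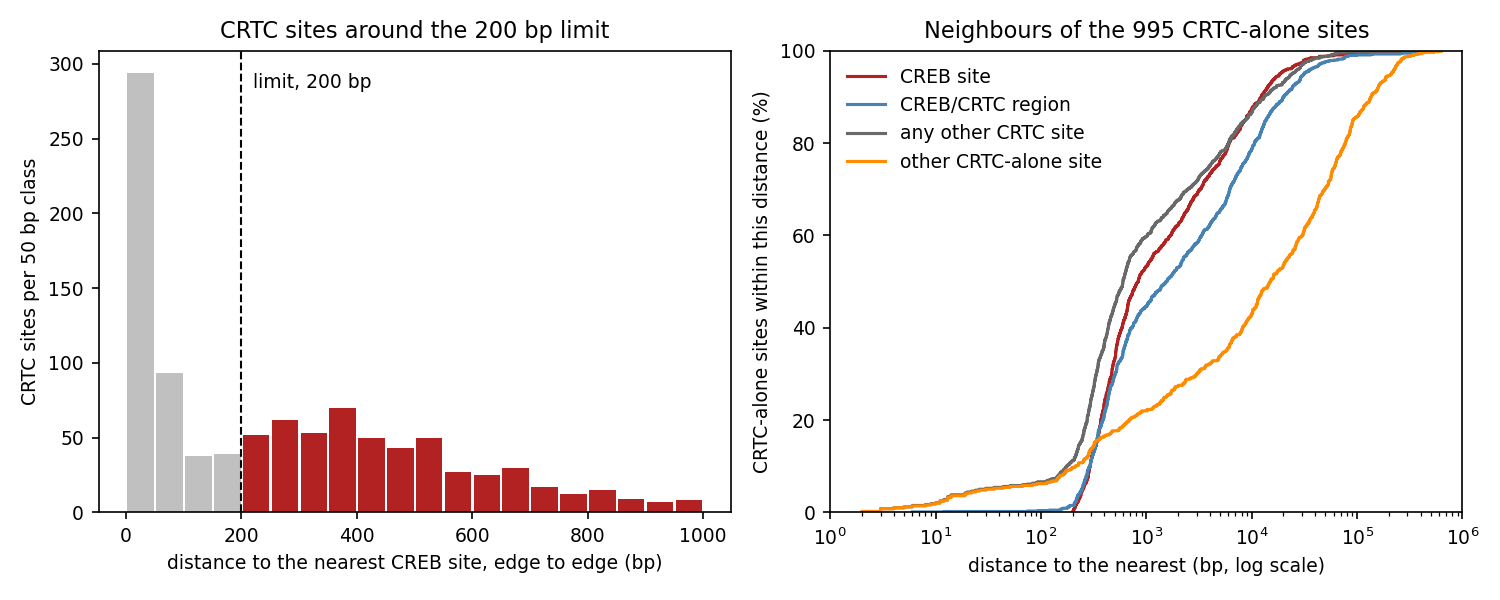
Left, numbers of CRTC sites in 50-bp classes of distance to the nearest CREB site up to 1000 bp, with CRTC-alone sites in red and sites within 200 bp in grey; the 4531 sites at distance 0 are not drawn. Right, percentage of the 995 CRTC-alone sites within a given distance (bp, log axis) of the nearest CREB site, CREB/CRTC region, other CRTC site and other CRTC-alone site; 53.3% were within 1000 bp of a CREB site and 22.0% within 1000 bp of another CRTC-alone site.

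CRTC-alone sites had low scores. Their scores were 1.51 to 19.5 with a median of 2.80 (middle 50%, 2.21 to 3.68), against a median of 4.66 (3.17 to 7.54) for the other CRTC sites, whose highest score was 122.6. A score above 5 was listed for 111 CRTC-alone sites (11.2%) and for 2283 other CRTC sites (45.7%), and a score above 10 for 11 (1.11%) and 696 (13.9%). Of the CRTC-alone sites, 858 (86.2%) were below the median of the others. The false discovery rate, which had to be low for a site to be listed, had a median of 0.00577 for CRTC-alone sites and 0.00291 for the others. It was listed as 0 for 15 CRTC-alone sites (1.51%) and for 18.2% of the others. CRTC-alone sites shared their scores more: 862 of them (86.6%) had exactly the score of at least 1 other CRTC site, compared with 72.9% of the others, and the 995 sites had 551 distinct scores.

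CRTC-alone sites were also narrow. Their widths were 10 to 198 bp with a median of 76 bp (middle 50%, 49.5 to 107 bp), and the median of the other CRTC sites was 106 bp. There were 249 CRTC-alone sites (25.0%) narrower than 50 bp, against 10.7% of the others. Width and score went together less among CRTC-alone sites (Spearman's rho 0.23 across 995 sites of 1 list) than among the others (0.52 across 4995 sites), given here as a description. The widest CRTC-alone site had 198 bp (2L, 13378570 to 13378768, score 4.93, nearest region that of CG43850), followed by a site of 193 bp near CG11505 (3L, 3225343 to 3225536, score 2.11) and by 2 sites of 192 bp, near HmgD, a chromosomal HMG-box protein (2R, 17601320 to 17601512, score 6.73), and near Pfrx (X, 19415828 to 19416020, score 1.95). The narrowest had 10 bp, near nrv2, which encodes a beta subunit of the Na/K-ATPase (2L, 6793814 to 6793824, score 2.15), and 11 bp, near CG42669 (3L, 2373652 to 2373663, score 3.46), and 13 sites had 12 bp. The widest and narrowest sites named here scored 1.95 to 6.73. Scores of 12-bp sites included 1.66 near Rab11 and 8.22 near GstS1. A site near CG9650 that was almost as narrow scored 11.2, as given below.

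**Figure D2:**
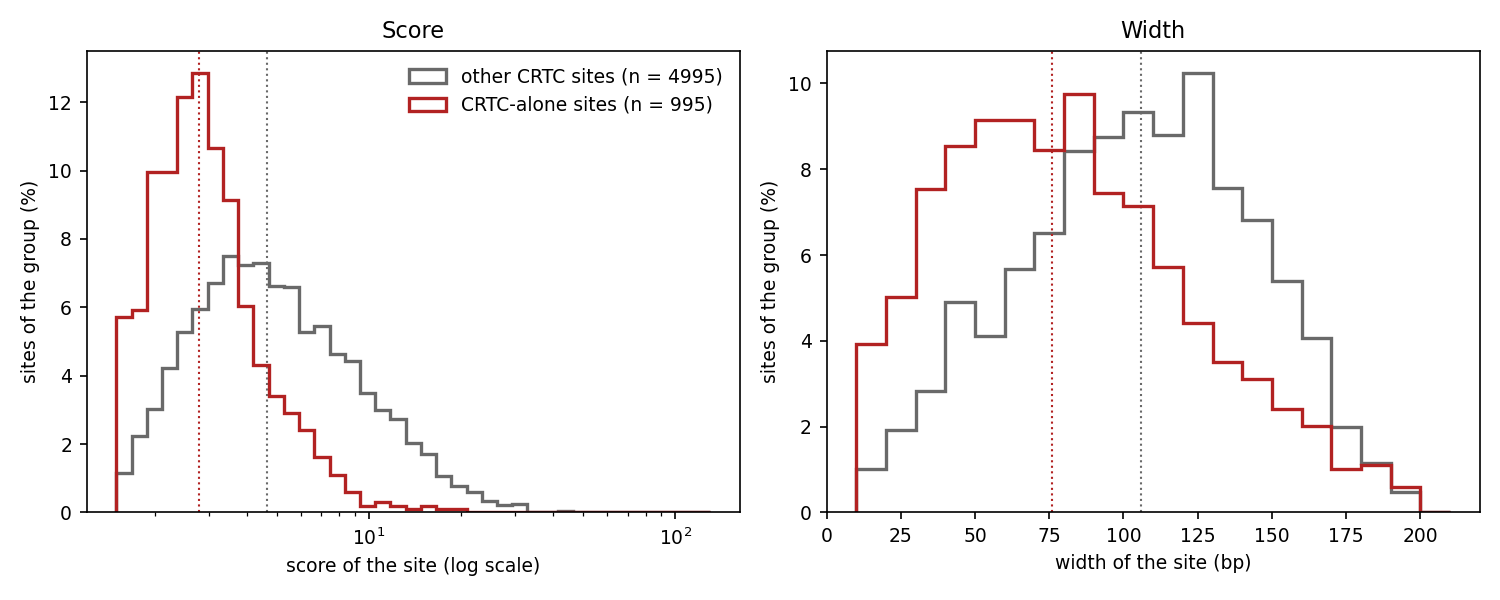
Percentage of sites of each group by score (left, log axis) and width in bp (right), for the 995 CRTC-alone sites (red) and the 4995 other CRTC sites (grey), with dotted lines at the medians. The medians were 2.80 and 4.66 for the score and 76 and 106 bp for the width, and the groups overlapped widely in both.

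The share of CRTC-alone sites fell with the score at every width. When all CRTC sites were divided into 4 equal classes by score, 34.9% of the lowest class were CRTC-alone, 19.8% of the next, 8.98% of the next and 2.74% of the highest. In the lowest class the share was between 31.4% and 39.2% at every width. In the highest class it was 16.7% (6 of 36 sites) for sites of 10 to 50 bp, 5.86% for 51 to 100 bp, 1.46% (12 of 822) for 101 to 150 bp and 2.09% for 151 to 200 bp. In each of the 4 score classes the sites of 10 to 50 bp had the highest share.

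**Figure D3:**
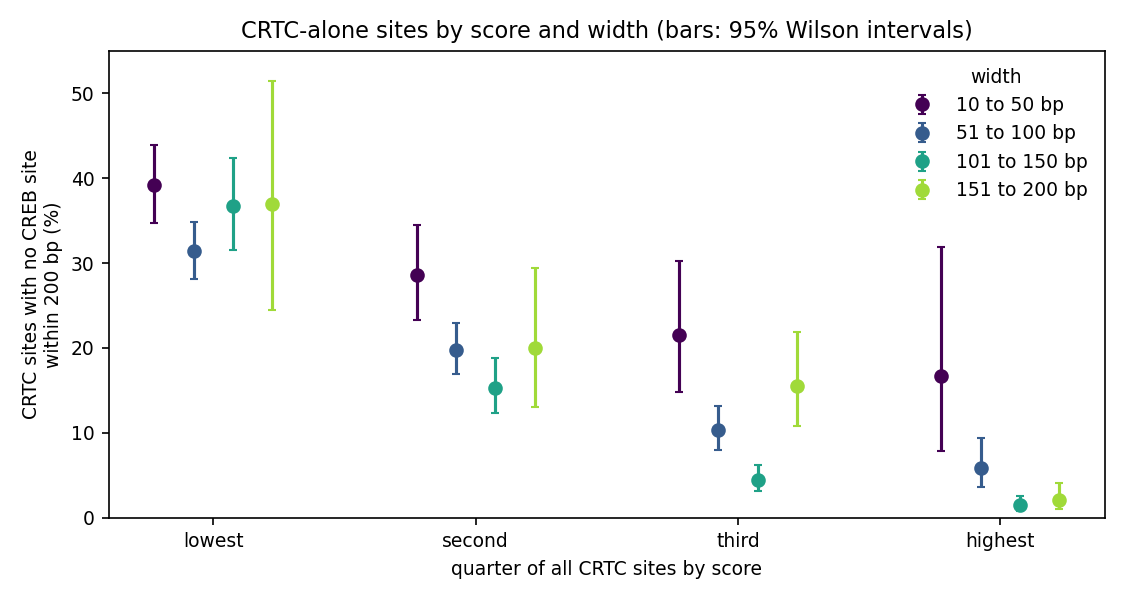
Percentage of CRTC sites that had no CREB site within 200 bp, by score class (4 equal classes of all CRTC sites) and width class, with 95% Wilson intervals. The share fell from 31.4 to 39.2% in the lowest score class to 1.46 to 16.7% in the highest.

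Score and width changed little with the distance to CREB. The median score was 2.73 for the 330 CRTC-alone sites at 201 to 500 bp from a CREB site, 2.71 for the 200 at 501 to 1000 bp, 2.74 for the 228 at 1001 to 5000 bp, 3.01 for the 193 at more than 5000 and up to 20000 bp and 3.17 for the 44 beyond. Their median widths were 74.5, 72.5, 76, 85 and 84.5 bp. The sites far from CREB were thus, if anything, slightly higher and wider than the near ones. Among 74 CRTC-alone sites with neither a CREB site nor another CRTC site within 10000 bp, the median score was 3.17 and the median width 95 bp.

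The 10 CRTC-alone sites with the highest scores were on 2R, 3R, 3L and X. Of these 10, 8 were more than 2000 bp from any CREB site, as were 376 of all 995 CRTC-alone sites. The highest, 19.5, was an 80-bp site on 2R at 711817 to 711897, which ranked 93 among all 5990 CRTC sites. It was 553485 bp from the nearest CREB site, the longest distance of all, and the nearest region of the table belongs to IntS3, a subunit of the Integrator complex that processes small nuclear RNAs. The next were sites on 3R at 7808356 to 7808498 (score 17.2, 2280 bp from a CREB site, nearest region CG18547) and on 2R at 3948542 to 3948711 (16.5, 2773 bp, CG12769). These 3 sites scored above the CREB/CRTC region nearest to each, which had scores of 3.09, 5.38 and 2.41. As they were picked for their high scores, this order was likely from the start. Over all 995 sites the nearest region had a median score of 4.50.

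A site on X at 11701088 to 11701216 scored 15.7 only 282 bp from a CREB site, next to the region of Hsc70-3, which encodes an endoplasmic reticulum chaperone. On X at 14109008 to 14109170 a site near l(1)G0007 scored 13.9, and on 3R at 6998673 to 6998787 a site scored 13.0 and lay 15900 bp from a CREB site, the nearest region being that of Ugt86Da, a UDP-glycosyltransferase gene. The others were near CG43245 (3L, 10741273 to 10741387, score 12.8), Bx, which encodes a LIM-only protein (X, 18440970 to 18441086, score 11.3, 12346 bp from the region), CG9650 (X, 7098121 to 7098135, score 11.2) and CG43252 (3R, 2733918 to 2733989, score 11.0). The site near CG9650 was only 14 bp wide. All 10 had a false discovery rate listed as 0.

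The 5 CRTC-alone sites farthest from CREB all lay on 2R between positions 18411 and 978095. Besides the site with the highest score, they were at 703109 to 703186 (544777 bp from a CREB site, score 3.38), 977974 to 978035 (323041 bp, 4.50), 978054 to 978095 (322981 bp, 2.62) and 18411 to 18517 (139696 bp, 3.73). The nearest region was that of IntS3 for 3 of the 5 and that of laccase2, which encodes the phenol oxidase that tans the cuticle, for the other 2. The sites at 977974 and 978054 were 19 bp apart, and apart from the highest of the 5 their scores were in the usual range of CRTC-alone sites.

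Over the chromosome arms, the counts of CRTC-alone sites of all scores followed those of the other CRTC sites. There were 233 on 3R, 204 on 2R, 195 on 3L, 185 on 2L, 175 on X and 3 on chromosome 4. The share of CRTC sites that were CRTC-alone was 17.9% on 2L (15.6 to 20.3%), 17.3% on X (15.1 to 19.8%), 16.8% on 2R (14.8 to 19.0%), 15.8% on 3R (14.0 to 17.8%), 15.8% on 3L (13.8 to 17.9%) and 14.3% on chromosome 4 (5.0 to 34.6%, 3 of 21 sites). These intervals overlap between all pairs of arms. CRTC-alone sites on X had the highest median score of the 5 large arms, 3.16 against 2.67 to 2.80 on the others, and the other CRTC sites on X also had the highest median, 5.27 against 4.35 to 4.74. Among CRTC sites scored above the median of the list, 19.2% were on X, while 27.4% of the 175 CRTC-alone ones were (48 sites). Median scores on X were thus the highest of the large arms in both groups. The share of CRTC-alone sites was also higher on X among CRTC sites scored above the median of the list. It was 8.38% there, against 4.19 to 6.18% on the other large arms, with 1 of 7 sites on chromosome 4. This difference was not tested.

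**Figure D4:**
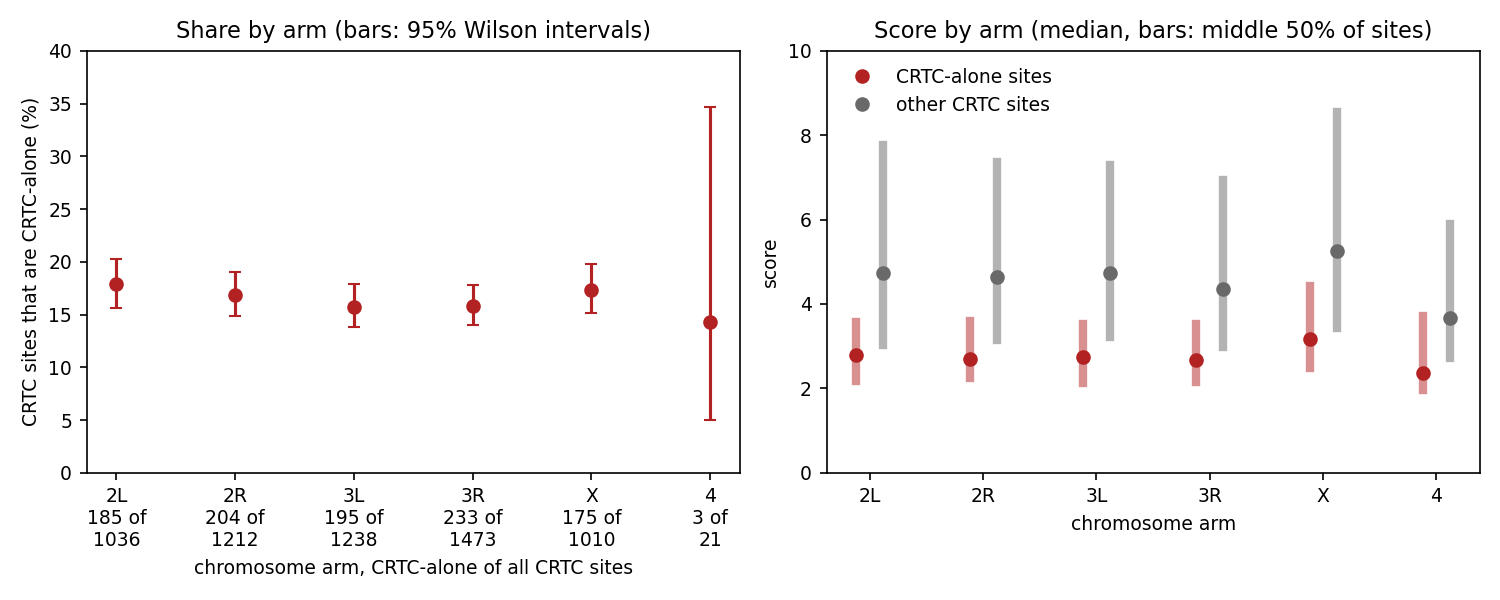
Left, percentage of CRTC sites on each chromosome arm that were CRTC-alone, with 95% Wilson intervals and the counts under each arm. Right, median score by arm for CRTC-alone sites (red) and other CRTC sites (grey), with bars over the middle 50% of sites; the shares were 14.3 to 17.9%, and on X the medians were 3.16 and 5.27.

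CRTC-alone sites were often close to another CRTC site. The nearest other CRTC site was at a median of 599 bp and within 1000 bp for 594 (59.7%), against a median of 874 bp and 52.1% for the other CRTC sites. For 274 CRTC-alone sites (27.5%) this neighbour was CRTC-alone as well, while 16.6% of all CRTC sites were CRTC-alone. Spacing to the different neighbours was unlike: 97 CRTC-alone sites had another CRTC-alone site within 200 bp, but only 15 had a CREB/CRTC region within 200 bp. The rule has a part in this and in the share of 27.5%, since a site next to a paired site is often near the CREB site too. In 56 CRTC-alone sites the next CRTC site was within 50 bp, and the smallest gap, 2 bp, was between 2 sites near Clic on X (13715705 and 13715757).

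Joined over gaps of up to 1000 bp, the 995 sites formed 879 groups, of which 776 were single sites, 92 held 2 sites, 9 held 3 and 2 held 4. The 219 sites in groups (22.0%) had a median score of 2.90 and a median width of 68 bp, and the single sites 2.75 and 80 bp. Of the 11 groups with at least 3 sites, 6 were on X, 3 on 3L and 1 each on 2R and 3R, but of all sites on an arm the share in groups was 26.9% on X, 27.0% on 2R, 21.0% on 3R, 18.5% on 3L and 17.3% on 2L.

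One of the groups of 4 lay on X at 7589691 to 7590337, near regions of CHES-1-like, a forkhead transcription factor gene. Its sites scored 4.10, 2.90, 4.67 and 5.38, and were 412 to 670 bp from a CREB site. The other lay on 3L at 10846096 to 10847392, near tna, whose product is an SP-RING zinc finger protein linked to the Brahma chromatin remodelling complex. Its sites scored 6.07, 6.02, 1.52 and 2.82 and were 521 to 1775 bp from a CREB site. Both groups thus stood within 2000 bp of CREB sites. The 9 groups of 3, equal in number of sites and 371 to 1374 bp long, were nearest to the regions of CHES-1-like (a second group), Rgl, CG9281, dob, XNP, csw, croc, Smr and RYBP. At RYBP the 3 sites were 322 to 702 bp from a CREB site and scored 2.38, 6.07 and 1.81, whereas at croc, another forkhead gene, they were 11514 to 12396 bp away and scored 8.20, 1.83 and 1.73.

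The binding table allowed each CRTC-alone site to be placed by its nearest CREB/CRTC region and the gene listed there, which need not be the gene nearest to the site itself. The distance to that region had a median of 1532 bp, and 444 sites (44.6%) were within 1000 bp, 650 (65.3%) within 5000 bp and 895 (89.9%) within 20000 bp. The nearest regions had a median score of 4.50, close to the 4.66 of all regions. For the 444 sites within 1000 bp, the region was within 500 bp of its TSS in 276 cases (62.2%), against 63.8% of all regions. For the sites farther out the share was 70.6%.

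The table's signed distances placed TSSs for some of its genes. The strand of a gene was set where its regions pointed to a common base, or into a region that covered a TSS, on 1 strand more often than on the other. This gave 1259 TSSs at 938 genes of 2833, of which 793 were pointed to by at least 2 regions and 466 by 1 region, and 1051 regions covered a TSS. With these, 127 CRTC-alone sites (12.8%) were within 500 bp of a placed TSS, 29 within 200 bp and 216 (21.7%) within 1000 bp. With only the TSSs to which at least 2 regions pointed, 40 sites were within 500 bp. TSSs of all other genes are left out of these counts, and where a region covered a TSS the distance was taken to the edge of that region. The counts therefore cannot be set against the 63.8% of regions above, which used the TSS listed for each region. Near the TSSs with a strand, 146 CRTC-alone sites were within 1000 bp, 78 upstream, 62 downstream and 6 across the TSS. So the sites stood on both sides, with 42.5% downstream, the 6 across the TSS counted in the total. The share was similar for CREB/CRTC regions. Of 2721 regions up to 1000 bp from their listed TSS and not covering it, 1166 (42.9%) were downstream. The 6 sites across a TSS were at Hnf4, Oatp30B, Gyc76C, which encodes a receptor guanylyl cyclase, bor, Atpalpha, which encodes the alpha subunit of the Na/K-ATPase, and alpha-Man-I, with scores of 1.99, 4.25, 7.40, 2.54, 2.90 and 3.38.

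The regions nearest to the 995 sites belonged to 716 genes, and 520 of these genes were nearest to a single CRTC-alone site, 139 to 2, 43 to 3, 8 to 4 and 6 to at least 5. CHES-1-like had 10, spread over X from 7572979 to 7628598, beside 14 CREB/CRTC regions. Their scores were 1.64 to 5.38, against 2.49 to 16.4 for the regions. Of the 10 sites, 5 were within 5000 bp of a region, all 404 to 662 bp from it, and the other 5 were 11828 to 24366 bp out. At this locus CRTC-alone sites thus lay both between the regions and on either side of them.

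At sbb, which encodes the corepressor Scribbler (Brakeless), 6 CRTC-alone sites on 2R scored 1.96 to 5.07 and the 2 regions 2.28 and 19.3. At tna, 5 sites scored 1.52 to 6.07 beside 4 regions of 2.57 to 18.0. At Smr, the gene of the nuclear receptor corepressor Smrter and one of the genes tested in the study, 5 sites on X scored 2.76, 5.88, 7.25, 6.42 and 1.93 and were 4301, 4985, 5260, 651 and 269 bp from a CREB site. The Smr site nearest to CREB had the lowest score of the 5. All 5 were below its 4 regions, which scored 8.96 to 14.3. At CG17321, 5 sites scored 2.20 to 5.52 and all were more than 5000 bp from its 2 regions, which scored 14.5 and 17.5. At Faf, 5 sites scored 1.92 to 3.54 and its 1 region 2.58. Faf was thus the only one of these 6 genes where a CRTC-alone site scored above every region of the gene.

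**Figure D5:**
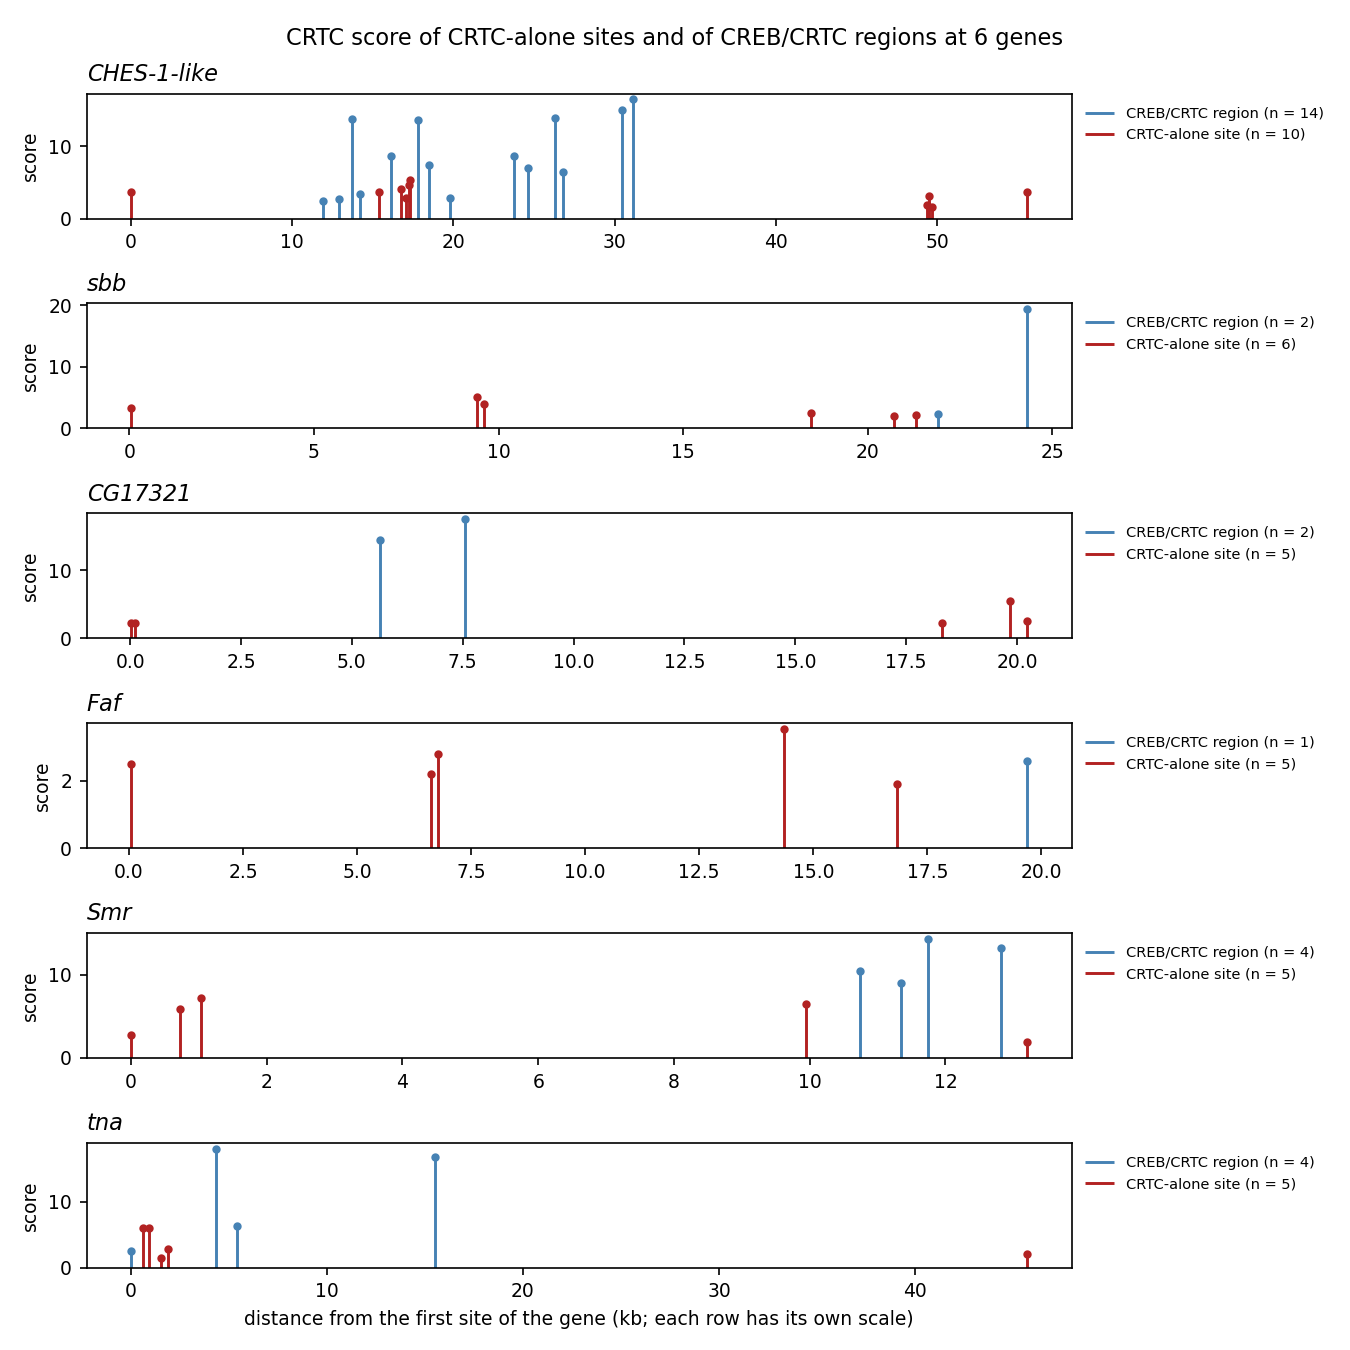
Scores of CRTC-alone sites (red) and of CREB/CRTC regions (blue) along the 6 genes whose regions were nearest to at least 5 CRTC-alone sites, by distance in kb from the first site; each stem is 1 site, and each row has its own scales. At CHES-1-like 10 sites of score 1.64 to 5.38 stood among and beside 14 regions of score 2.49 to 16.4.

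Of all 2833 genes in the table, 597 (21.1%) had a CRTC-alone site within 5000 bp of one of their regions. This share depends on how many regions a gene has: it was 16.6% of the 1719 genes with 1 region and 36.5% of the 477 genes with at least 3. The gene lists below are given beside these shares, as counts only.

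Of the bZIP factors related to CREB, 4 of 9 in the table had such a site, and 7 of the 9 had at least 3 regions. CrebB-17A, the gene of fly CREB itself, had a 20-bp site on X at 18262542 to 18262562 (score 3.59, 236 bp from a CREB site and 1623 bp downstream of a placed TSS) and an 80-bp site at 18263910 to 18263990 (2.54, 858 bp from a CREB site and 1039 bp upstream of another placed TSS). Both stood between CREB/CRTC regions of the gene's own locus. Atf3 had a site 308 bp from a CREB site (X, 1170908 to 1170949, score 2.18). Pdp1 and vri, bZIP activator and repressor of the circadian clock, had sites 277 bp (3L, 7841233 to 7841276, score 2.82) and 2049 bp (2L, 5303364 to 5303430, score 3.25) from a CREB site.

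Of the circadian clock genes, 5 of 9 had such a site, counting Pdp1 and vri again, and 6 had at least 3 regions. At per, a core repressor of the clock, a 147-bp site was 434 bp from a CREB site and 547 bp upstream of a placed TSS (X, 2578918 to 2579065, score 2.49). The kinase genes sgg and dco (also doubletime) had sites of score 1.92 (X, 2540584 to 2540617) and 1.74 (3R, 26885914 to 26885994). All 5 sites scored below the median of the other CRTC sites, as did 86.2% of all CRTC-alone sites.

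Of the cAMP, calcium and learning genes, 4 of 15 had such a site, and only 1 of the 15 had 3 or more regions. CanB, a calcineurin regulatory subunit, had a site of score 3.15 that was 3321 bp from a CREB site (X, 5223337 to 5223392). The others were Adf1, a transcription factor (2 sites on 2R, 2.23 and 1.98), rg, a protein kinase A anchor (3 sites on X, 3.93, 1.79 and 1.66), and orb2, a translational regulator of the CPEB family (3L, 8947048 to 8947098, score 1.79). The rg site of 3.93 was nearer to a region of CG32767 (527 bp) than to one of rg (1933 bp). The sites at Adf1 and orb2 scored below the median of CRTC-alone sites.

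Of the CRTC regulators and energy sensing genes, 3 of 7 had such a site, with 4 of the 7 at 3 or more regions. The insulin receptor gene InR had a site of score 3.04 (3R, 17430360 to 17430468), and foxo, the forkhead factor that insulin signalling restrains, had 3 sites on 3R of 2.90, 2.81 and 2.57, all 772 to 1045 bp from a CREB site. The kinase gene Akt1 had 1 site, of 2.64. These 3 genes belong to 1 pathway, and their 5 sites scored between 2.57 and 3.04.

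Of the activity-regulated factors and nuclear receptors, 4 of 11 had such a site, and 9 of the 11 had at least 3 regions. Eip74EF, an ecdysone-induced ETS factor, had a 16-bp site 294 bp upstream of a placed TSS (3L, 17570020 to 17570036, score 3.35), and EcR, the ecdysone receptor gene, a 180-bp site of score 1.96 (2R, 2021816 to 2021996). Hr4 (X, 1885357 to 1885413) and Hnf4 (2L, 8709523 to 8709635) had sites of 2.08 and 1.99. Hr38, a nuclear receptor gene known for induction by neuronal activity, had no CRTC-alone site within 5000 bp of its regions.

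Of the axon guidance and adhesion genes, 3 of 13 had such a site, and 3 of the 13 had at least 3 regions. Sema-1a, a guidance cue and receptor, had a site 207 bp from a CREB site, 536 bp upstream of a placed TSS (2L, 8542711 to 8542793, score 3.64). The scaffold gene dlg1 and the netrin receptor gene unc-5 had sites of 2.99 (X, 11262303 to 11262407) and 2.07 (2R, 11237559 to 11237611). The last list held the 10 genes tested in the study, which were selected with CREB/CRTC binding in view, and elav, its neuronal control gene. Of the 10, 3 had such a site. These were Smr (2 of its 5 sites, 6.42 and 1.93), beta-Spec, which encodes a membrane skeleton protein (2 sites on X, 2.77 and 2.31), and Eip71CD, which encodes a methionine sulfoxide reductase (3L, 15501376 to 15501468, score 2.59, 2529 bp from its region). A region of CG7841 was nearer to the Eip71CD site, at 563 bp. At elav, which encodes a neuronal RNA-binding protein, a site scored 3.02 (X, 417677 to 417769, 418 bp upstream of a placed TSS). The site nearest to a region of Bx, scored 11.3 above, was 12346 bp from it and so is not counted here.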

How the data were processed

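ChIP-seq of CREB and CRTC was made from MB nuclei. The authors mapped MiSeq read pairs to dm3, ran PICS and ERD against input DNA and kept sites found by both, in at least 2 of 3 replicates. The deposited site lists give a score and a false discovery rate (a q-value) per site, and how replicates were combined is not given in the sources used here. The deposited binding table gives 4995 regions with gene symbols and distances to a TSS (other values, in bp). Its adjusted p-value and fold change columns, from the authors' DESeq2 comparison of trained with naive flies, were not used, nor were 515 rows without a position.

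Distances were taken between edges with Python 3 scripts (NumPy and pandas), which were tested on simulated sites. TSSs were placed in dm3 from the signed distances: upstream and downstream regions of a gene pointed to the same base in 299 instances. RefSeq symbols and synonyms (Release 6, names only) matched 2779 of 2833 table symbols.

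Named were the 10 sites with the highest scores, the 5 farthest from CREB, 3 on each side of the limit, the 3 widest and narrowest (with ties), the largest groups, genes nearest to at least 5 sites, and genes of 7 lists with a site within 5000 bp; the sites across a TSS and the closest pair were added after their values were seen. One gene was left out of these lists and is not reported here. Members and lists were chosen with earlier results of these data known. Limits, distances, score and width filters were varied.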

Additional observations from a re-analysis of the deposited data

How the results depend on the processing

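The number of CRTC-alone sites was 995 at 200 bp. It moved by more than 1.5 times with a limit of 1000 bp (465 sites), against CREB sites scored above their median (2750) and among CRTC sites scored above theirs (175), by construction of these filters. It was 665 to 1459 in the other 6 settings (limits of 0, 100 and 500 bp, distance between centres, sites at least 100 bp wide, neighbouring CRTC sites joined). Over the 5 settings tried for each, the median score was 2.83 to 3.01 and the median width 76 to 92 bp, against 2.80 and 76 bp. The share on X, 17.6%, was 13.8% with the limit of 1000 bp and 27.4% among CRTC sites scored above the median, both outside its interval of 15.3 to 20.1%; the cause was not tested. The share within 1000 bp of a CREB/CRTC region, 44.6%, was 29.6% within 500 bp, 53.1% within 2000 bp and 65.3% within 5000 bp, since the limit itself changed. The number within 500 bp of a placed TSS, 127, was 29 at 200 bp and 216 at 1000 bp, and 40 with only the TSSs to which at least 2 regions pointed, fewer TSSs being used. Groups numbered 847 to 903 with gaps of 2000 and 500 bp, against 879.

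No paired analysis was possible because the site lists combine replicates and hold no values per replicate. Leaving out a replicate was not possible for the same reason. The processed files give no read depth, and the read totals per library that the study lists were not used here, so that the depth behind a missing CREB neighbour was not assessed.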
